A study of Mus musculus with 14 samples.

Results

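The aminoacyl-tRNA synthetase genes, 36 of the 24463 genes listed in each library, were chosen as a list of gene symbols by function; no measured value entered the rule, but the list was drawn up with earlier results of these data known. The list held 20 mainly cytosolic enzymes (Aars, Cars, Dars, Eprs, Farsa, Farsb, Gars, Hars, Iars, Kars, Lars, Mars, Nars, Qars, Rars, Sars, Tars, Vars, Wars and Yars) and 16 mitochondrial enzymes, whose symbols end in 2 (Aars2, Cars2, Ears2, Fars2, Hars2, Iars2, Lars2, Mars2, Nars2, Pars2, Rars2, Sars2, Tars2, Vars2, Wars2 and Yars2). All 36 were found, and all 36 were above the minimum level of the tests in every comparison. RNA was sequenced from mouse leukemic stem cells, the cells that sustain a leukemia, in a bone marrow model of BCR-ABL leukemia.

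In every group, lineage-negative marrow cells had received p210 BCR-ABL, a fusion tyrosine kinase, by retroviral transduction (2 rounds, 24 h apart), and the transduced cells that carried c-Kit, Sca1 and GFP but no lineage markers were sorted 48 h after isolation. Untreated cells came from control mice (WT, 3 libraries) or from mice deficient in Tcf1 and Lef1, DNA-binding partners of beta-catenin (dKO, 3 libraries). Control cells were also treated for 6 h with DMSO as vehicle (3 libraries), 20 µM prostaglandin E1 (PGE1, 3 libraries) or 20 µM prostaglandin E2 (PGE2, 2 libraries). The sources used here do not give the ages of the mice or the way in which Tcf1 and Lef1 were removed, and no label says that replicates were separate animals or cultures. The p-values therefore cover only the spread among these libraries, which could be technical. Genotype entries and titles disagreed for 2 libraries: dKO replicate 1 was entered as wild type and DMSO replicate 1 as deficient. Titles were used throughout.

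Each synthetase joins 1 amino acid to its matching tRNAs, apart from Eprs, a fused glutamate and proline enzyme. The family thus supplies the charged tRNAs that ribosomes use. Most amino acids are served by separate nuclear genes for the cytosol and for the mitochondrial matrix, where the few proteins encoded by mitochondrial DNA are made; Gars and Kars make enzymes for both compartments. Several cytosolic enzymes sit together in a multi-synthetase complex held by the scaffold proteins Aimp1, Aimp2 and Eef1e1. In mammalian cells many cytosolic synthetase genes are known targets of Atf4, the transcription factor of the integrated stress response, which is translated when amino acids run short, and several are known targets of Myc.

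Levels are in FPKM, fragments scaled to gene length and library depth. Reads in genes ran from 19.05 to 20.63 M per library in untreated cells and from 11.33 to 13.41 M in treated cells. The tests used limma on log2(FPKM + 1) with Benjamini-Hochberg adjustment over all genes of the fit, and a gene was called at an adjusted p below 0.05. Tcf7, which encodes Tcf1, was at 1.48, 1.15 and 1.30 FPKM in WT and at 0.142, 0.0219 and 0.135 FPKM in dKO, so dKO replicate 1 sat with its title. Lef1 was low in both, at 0.283 ± 0.0524 FPKM (SD, n = 3) in WT and 0.151 ± 0.0411 FPKM (n = 3) in dKO. The SD of gene-wise log2 differences between replicates was largest in pairs that held PGE1 replicate 2 (0.325 and 0.335, against 0.247 for the other PGE1 pair), DMSO replicate 1 (0.214 and 0.219, against 0.162) and dKO replicate 1 (0.226 and 0.218, against 0.169). Kit, Ly6a (Sca1), Ptprc and Cd34 were detected in all 14 libraries, and Ly6a fell from 11.3 ± 1.2 FPKM in WT to 3.12 ± 0.358 FPKM in dKO. Monocyte genes were present despite the lineage-negative sort: Lyz2, a monocyte and granulocyte lysozyme, averaged 454 FPKM in WT and 49.9 FPKM in dKO.

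The cytosolic genes formed a high and narrow band and the mitochondrial genes a low and wide one. In WT the cytosolic genes ran from 24.7 ± 0.97 FPKM for Cars, the cysteine enzyme, to 131 ± 2.87 FPKM for Nars, the asparagine enzyme (SD, n = 3). The mitochondrial genes ran from 1.54 ± 0.135 FPKM for Ears2, the glutamate enzyme, to 25.2 ± 0.756 FPKM for Iars2, the isoleucine enzyme. Kars (93.6 ± 1.36 FPKM) and Gars (88.3 ± 2.15 FPKM), which serve both compartments, were next after Nars in WT. Lars2, Tars2, Yars2, Iars2 and Cars2 were the only mitochondrial genes above 15 FPKM in WT, and Pars2, Wars2, Nars2 and Ears2 were below 5 FPKM there. Reads behind a value ran from 568 (Farsb) to 15119 (Nars) per library for cytosolic genes and from 82 (Nars2) to 3689 (Lars2) for mitochondrial genes, so counting error was at most 11.04% of a level (Nars2).

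Summed over the 20 cytosolic genes, the level was 1179 ± 8.88 FPKM in WT (SD, n = 3), 1455 ± 12.3 FPKM in dKO (n = 3), 923 ± 28.5 FPKM in DMSO (n = 3), 652 ± 44.9 FPKM in PGE1 (n = 3) and 1016 ± 4.42 FPKM in PGE2 (n = 2). The 5 groups did not overlap in this sum. Summed over the 16 mitochondrial genes, the level was 168 ± 6.23 FPKM in WT, 183 ± 8.87 FPKM in dKO, 146 ± 3.55 FPKM in DMSO, 147 ± 7.39 FPKM in PGE1 and 154 ± 4.29 FPKM in PGE2. The cytosolic sum was therefore 7.02 ± 0.308 times the mitochondrial sum in WT, 7.98 ± 0.463 in dKO, 6.31 ± 0.0996 in DMSO, 4.42 ± 0.266 in PGE1 and 6.62 ± 0.156 in PGE2. The near-equal mitochondrial sums of DMSO and PGE1 hide opposite changes. Lars2 alone went from 24.4 FPKM in DMSO to 44.1 FPKM in PGE1, while 8 of the 16 mitochondrial genes were called lower and 3 higher. Lars2 enters the ratio in the same way. In bulk RNA, fewer cells of a type and less RNA per cell cannot be told apart.

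**Figure D1:**
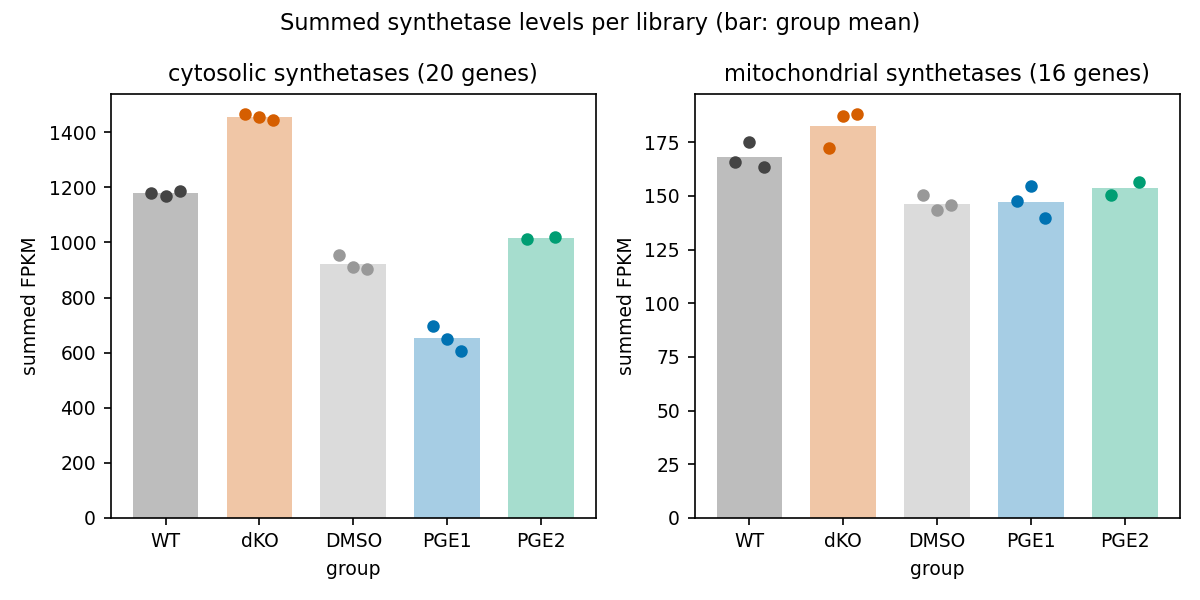
Summed FPKM of the 20 cytosolic synthetase genes (left) and the 16 mitochondrial ones (right) in each library, with 1 point per library and a bar at each group mean. The cytosolic sum was highest in dKO (mean 1455 FPKM) and lowest in PGE1 (mean 652 FPKM), while the mitochondrial group means stayed between 146 and 183 FPKM. Within the mitochondrial sum, Lars2 alone went from 24.4 FPKM in DMSO to 44.1 FPKM in PGE1.

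**Figure D2:**
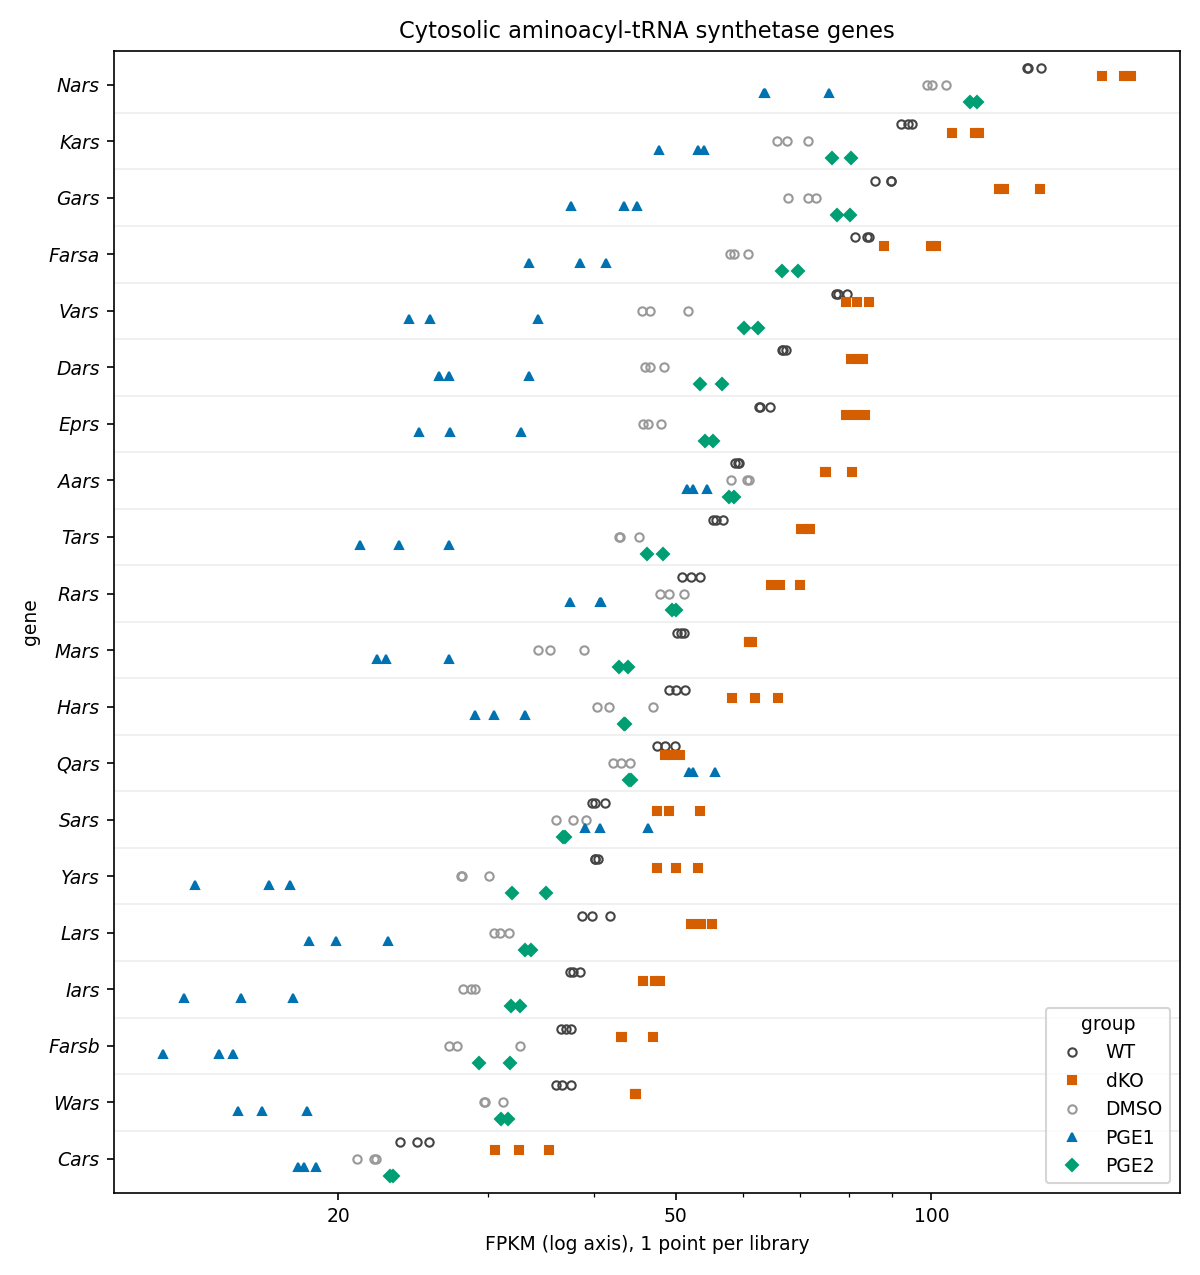
FPKM of each cytosolic synthetase gene on a log axis, with 1 point per library and groups by colour and shape. For most genes the dKO points lie to the right and the PGE1 points to the left of the others. Qars and Sars do not follow this order, and for Vars the dKO points overlap those of WT.

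Promoter windows of the members were searched for the E-box CACGTG (a sequence that Myc and other basic helix-loop-helix factors can bind), for TGATGNAA (an amino acid response element that Atf4 can bind) and for TGACGTCA (the cyclic AMP response element), on both strands. The windows ran from 250 bases before to 50 bases after the RefSeq gene start (build GRCm38.p6), and 27 members had a window that was used (13 cytosolic, 14 mitochondrial). CACGTG was found in 4 of the 13 cytosolic windows (Aars, Farsb, Iars and Tars) and in 1 of the 14 mitochondrial ones (Ears2), against 7.15% of all 32851 windows. TGATGNAA was found in 5 of the 13 cytosolic windows (Aars, Gars, Iars, Tars and Yars) and in 0 of the 14 mitochondrial ones, against 3.97% of all windows. TGACGTCA was found in 0 of the 27, against 1.79% of all windows. No motif match overlaps another in the stretches printed here, and a match is a description of the letters, not of binding.

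The stretches that hold these motifs upstream of the start are shown for Farsb, Iars, Tars and Gars, which were among the cytosolic genes with the largest differences after PGE1, and for Aars, which has both motifs upstream of its start. The windows of Iars and Tars also hold both motifs, with 1 of them after the start. Each is on the gene's own strand, with the motif in capitals; the amino acid response element matched on the opposite strand, so its capitals are the reverse complement.
Aars, E-box: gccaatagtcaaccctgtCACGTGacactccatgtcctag
Aars, amino acid response element: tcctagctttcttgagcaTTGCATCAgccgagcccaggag
Gars, amino acid response element: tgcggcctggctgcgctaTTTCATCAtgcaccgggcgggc
Tars, amino acid response element: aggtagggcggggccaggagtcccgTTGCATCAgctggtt
Iars, E-box: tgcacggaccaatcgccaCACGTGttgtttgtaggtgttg
Farsb, E-box: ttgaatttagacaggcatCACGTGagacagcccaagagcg
The Aars stretches lie at chr8:111033678-111033717 and chr8:111033712-111033751 (plus strand), with the motifs starting 146 and 112 bases before the gene start. The Gars stretch lies at chr6:55037953-55037992 (plus strand, motif 30 bases before the start) and the Tars stretch at chr15:11399659-11399698 (minus strand, 15 bases before). The Iars stretch lies at chr13:49682043-49682082 (plus strand, 69 bases before) and the Farsb stretch at chr1:78488915-78488954 (minus strand, 39 bases before).

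The comparison of dKO with WT asked what loss of Tcf1 and Lef1 did to these genes in untreated cells. Of the 20 cytosolic genes, 18 rose in dKO, 0 fell and 2 were not called, where 18% of the 10721 genes tested were called higher. The median log2 difference of the cytosolic genes was 0.30, against -0.01 over all genes tested. Of the 16 mitochondrial genes, 5 rose (Lars2, Vars2, Yars2, Aars2 and Mars2), 1 fell (Fars2) and 10 were not called, where 22.9% of all genes were called lower, and their median was 0.11. The rises were small: the largest, of Gars, was 1.42-fold.

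Gars, the glycine enzyme, was at 89.5, 85.9 and 89.6 FPKM in WT and at 134, 120 and 122 FPKM in dKO, a log2 difference of 0.50 ± 0.05 (SE, limma adjusted p = 0.0002325). Lars, the leucine enzyme, was at 38.8, 39.8 and 41.8 FPKM in WT and at 55.1, 53.6 and 52.2 FPKM in dKO (log2 difference 0.41 ± 0.04, limma adjusted p = 0.0002532). Eprs, a fused glutamate and proline enzyme, was at 62.7, 62.6 and 64.6 FPKM in WT and at 81.5, 83.4 and 79.3 FPKM in dKO (0.36 ± 0.04, limma adjusted p = 0.0002207). In each of these genes, picked by smallest adjusted p, the lowest dKO library was above the highest WT library. The share of all genes that separated in this way was not counted.

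Tars, the threonine enzyme, had the smallest p, with 55.7, 55.4 and 56.8 FPKM in WT and 71.7, 70.2 and 72 FPKM in dKO (log2 difference 0.34 ± 0.03, limma adjusted p = 0.0001701). Aars, the alanine enzyme, was at 59.4, 58.7 and 59.2 FPKM in WT and at 80.7, 74.8 and 75.1 FPKM in dKO (0.37 ± 0.04, limma adjusted p = 0.0003129). Dars, the aspartate enzyme, was at 66.6, 66.9 and 67.5 FPKM in WT and at 83.1, 80.4 and 82.2 FPKM in dKO (0.29 ± 0.03, limma adjusted p = 0.0004229). The library labelled dKO replicate 1, whose genotype field read wild type, was with the other dKO libraries in all 6 genes. They were picked by smallest adjusted p in a fit that already counted it as dKO, so this is no check of its label.

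Qars, the glutamine enzyme, and Vars, the valine enzyme, were the cytosolic genes not called: Qars averaged 48.7 ± 1.2 FPKM in WT and 49.4 ± 1.08 FPKM in dKO (log2 difference 0.02, limma adjusted p = 0.6552), and Vars 78.1 ± 1.3 FPKM and 81.8 ± 2.56 FPKM (0.07, limma adjusted p = 0.1883). With median-of-ratios scaling Vars was called higher. By structural class, 8 of 10 class I cytosolic genes rose and 10 of 10 class II genes rose. Of the 8 enzymes of the multi-synthetase complex, 7 rose (all but Qars), as did all 3 scaffold genes, among them Eef1e1 (52.2 ± 1.28 FPKM in WT, 66.6 ± 4.56 FPKM in dKO, log2 difference 0.34, limma adjusted p = 0.001924). Farsa, the alpha subunit of the phenylalanine enzyme, rose least of the 18 (log2 difference 0.20, limma adjusted p = 0.02258), and its call was lost without any 1 of the 3 WT libraries, dKO replicate 2 or dKO replicate 3, and with quantile normalization (lowest log2 difference over the alternatives 0.11). The other 17 cytosolic calls were kept under all 12 alternatives.

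The mitochondrial calls were less firm, and none of the 6 was kept under all alternatives. Lars2, the leucine enzyme, was at 17.9, 21.2 and 16.5 FPKM in WT and at 22.4, 23.3 and 24.4 FPKM in dKO (log2 difference 0.33, limma adjusted p = 0.01794), and this call did not survive leaving out WT replicate 1, WT replicate 3 or dKO replicate 3. Vars2 (7.47 ± 0.518 FPKM in WT, 8.95 ± 0.198 FPKM in dKO, limma adjusted p = 0.01359) lost its call without WT replicate 1. Aars2 (0.15, limma adjusted p = 0.03448) and Mars2 (0.20, limma adjusted p = 0.0432) each lost theirs without any 1 of the WT libraries, dKO replicate 2 or dKO replicate 3, and Yars2 (0.21, limma adjusted p = 0.0337) lost its call without WT replicate 1, WT replicate 3, dKO replicate 2 or dKO replicate 3. Mars2 and Yars2 also lost theirs with no minimum level. Fars2, the phenylalanine enzyme, fell from 7.89 ± 0.902 FPKM in WT to 6.44 ± 0.357 FPKM in dKO (-0.25, limma adjusted p = 0.0408), which did not survive leaving out WT replicate 1, WT replicate 2 or any 1 of the dKO libraries and was also lost with no minimum level or either other scaling.

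**Figure D3:**
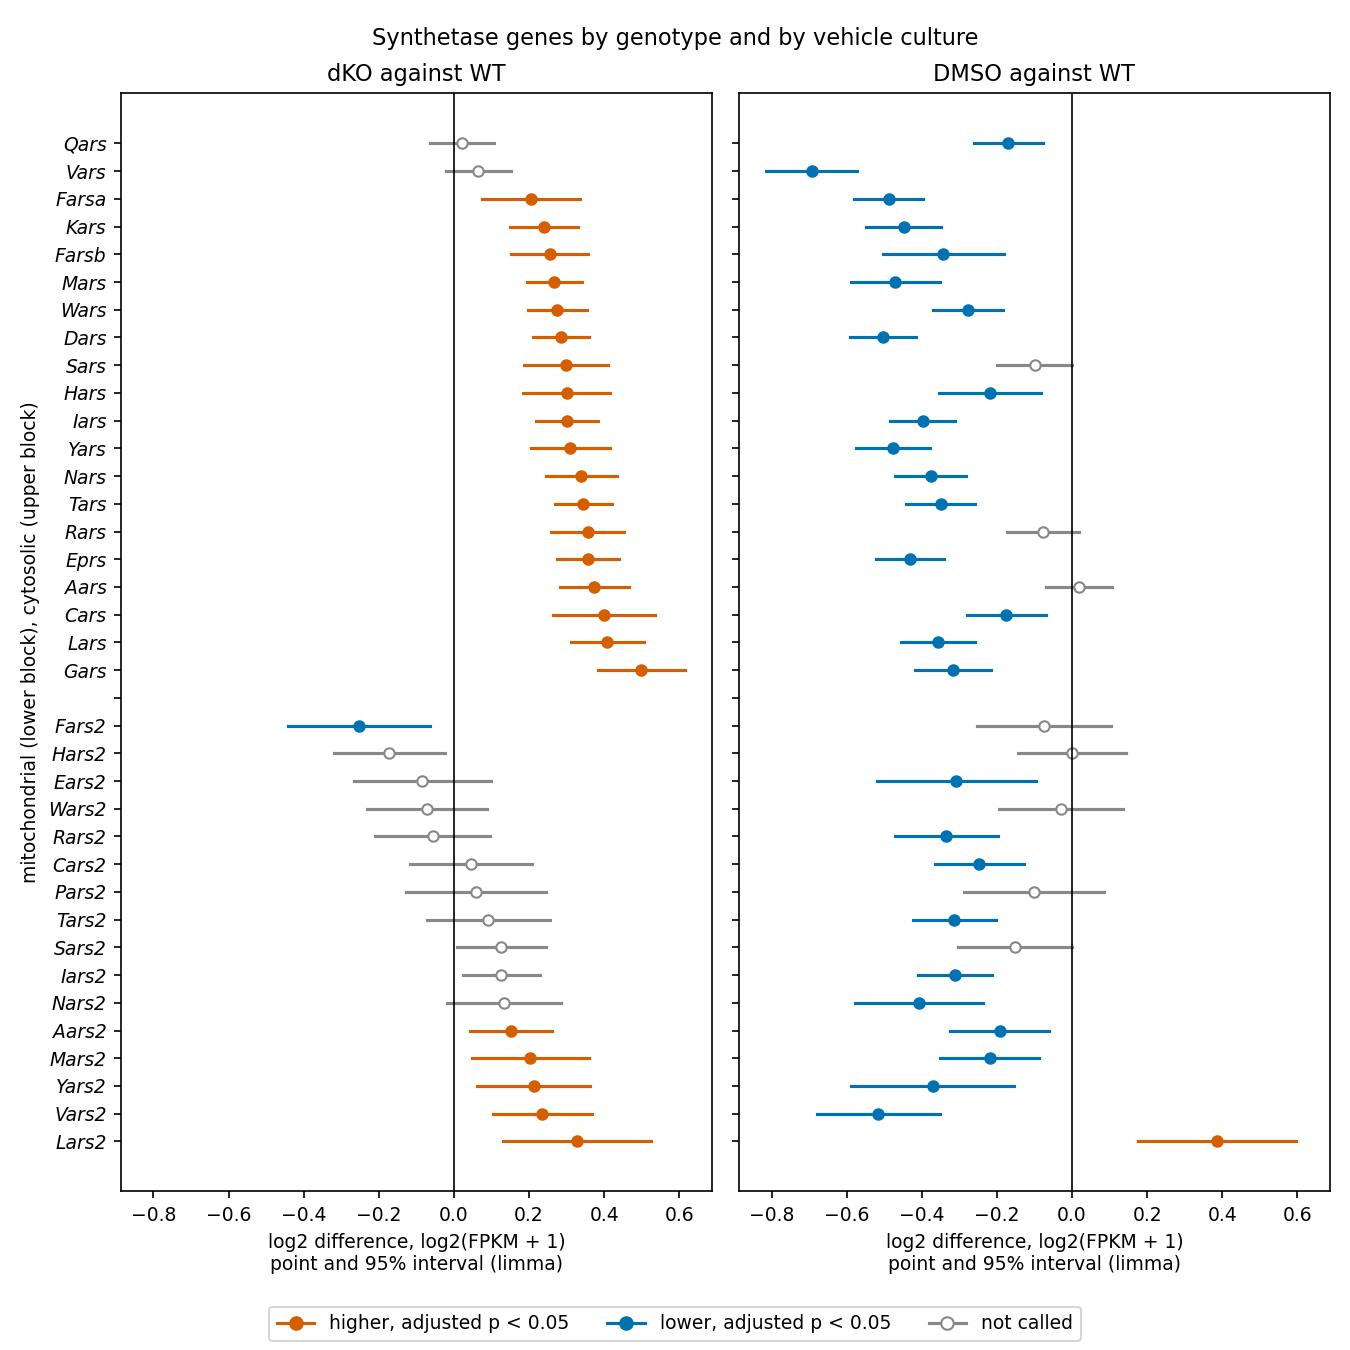
Log2 difference with its 95% interval from limma for each synthetase gene, dKO against WT on the left and DMSO against WT on the right, cytosolic genes above mitochondrial ones. Of the 20 cytosolic genes, 18 were called higher in dKO and 17 lower in DMSO; both comparisons use the same WT libraries.

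Genes around tRNA charging were read from lists alongside. Of 23 targets of the amino acid response tested, 19 rose in dKO and 0 fell, with a median log2 difference of 0.48; among those with the smallest p were Psph, which makes serine (26.0 ± 0.769 FPKM in WT, 45.2 ± 2.61 FPKM in dKO), and the transcription factor Atf5 (25.1 ± 1 and 40.9 ± 1.84 FPKM). Atf4 itself rose from 224 ± 0.0776 to 304 ± 25.8 FPKM (log2 difference 0.43, limma adjusted p = 0.00101), and with Eif2s1 it made 2 of 9 regulators of the integrated stress response that rose. Of 15 amino acid transporters 6 rose and 2 fell; Slc7a5, a leucine importer, went from 90.8 ± 1.2 to 134 ± 11.9 FPKM. Of 9 elongation factors 4 rose and 0 fell, and of 11 other genes of tRNA charging 3 rose, among them the tRNA exporter Xpot (21.2 ± 0.192 to 27.5 ± 1.12 FPKM). Myc rose from 100 ± 1.62 to 123 ± 4.38 FPKM.

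Markers of other blood cells moved with genotype beside these genes. All 4 markers of the sorted cell fell, as did 10 of 11 monocyte and macrophage markers, 7 of 7 late neutrophil markers tested, 8 of 8 megakaryocyte markers, 6 of 7 mast cell and basophil markers, 4 of 5 erythroid markers and 4 of 5 dendritic cell and MHC class II markers tested. B lymphoid markers went the other way, with 2 of 4 tested higher and 0 lower, and their sum was 45.2% higher in dKO. The summed monocyte markers ran from 1130 to 1176 FPKM in WT and from 422 to 507 FPKM in dKO, and the summed megakaryocyte markers from 236 to 258 FPKM and from 55.4 to 108 FPKM. In T and NK cell markers the sum was 2.88 FPKM in WT and 2.51 FPKM in dKO, with 4 of the 8 genes at 0 in every dKO library. The part of these shifts in the synthetase levels was not tested. Of all calls in this comparison 44.1% were higher with FPKM as deposited, 56.1% with median-of-ratios scaling and 60.2% with quantile normalization; the cytosolic median was 0.35 and 0.23 under the last 2.

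The comparison of DMSO with WT set control cells after 6 h with vehicle beside untreated control cells. Of the 20 cytosolic genes 17 fell, 0 rose and 3 were not called (Aars, Rars and Sars), where 30.7% of the 11115 genes tested were called lower. Of the 16 mitochondrial genes 10 fell, 1 rose (Lars2) and 5 were not called, where 26% of all genes were called higher. The median log2 difference was -0.35 for cytosolic and -0.23 for mitochondrial genes, against -0.03 over all genes. Culture, vehicle and sequencing depth, which differed between these groups, cannot be told apart here.

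Vars, the valine enzyme, fell most, from 79.6, 77.1 and 77.6 FPKM in WT to 51.7, 45.7 and 46.6 FPKM in DMSO (log2 difference -0.69 ± 0.05, limma adjusted p = 2.724e-05). Dars was at 48.4, 46.6 and 46.0 FPKM in DMSO (-0.50 ± 0.04, limma adjusted p = 2.666e-05). Farsa went from 84.5, 83.9 and 81.4 FPKM to 60.9, 58.5 and 58.0 FPKM (-0.49 ± 0.04, limma adjusted p = 3.727e-05). Every DMSO library was below every WT library in these 3 genes, which were picked by smallest adjusted p. How many of all genes separated likewise was not counted.

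Yars, the tyrosine enzyme, went from 40.1, 40.5 and 40.2 FPKM to 30.1, 27.9 and 28.0 FPKM (log2 difference -0.48 ± 0.04, limma adjusted p = 6.241e-05). Eprs was at 45.7, 46.4 and 48.0 FPKM in DMSO (-0.43 ± 0.04, limma adjusted p = 6.29e-05). Iars, the isoleucine enzyme, went from 37.8, 37.5 and 38.5 FPKM to 28.0, 28.7 and 29.0 FPKM (-0.40 ± 0.04, limma adjusted p = 7.507e-05). DMSO replicate 1, whose genotype field read deficient, was with the other DMSO libraries in Yars, Eprs and Iars. The fit that picked these genes already counted it as DMSO, so this too is no check of its label.

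Aars averaged 59.8 ± 1.57 FPKM in DMSO (log2 difference 0.02, limma adjusted p = 0.7089), close to its 59.1 ± 0.359 FPKM in WT. Lars2 rose from 18.5 ± 2.42 to 24.4 ± 1.93 FPKM (0.39, limma adjusted p = 0.007536). Calls that rested on 1 library were those of Cars (lost without WT replicate 1), Hars (without WT replicate 2), Aars2 (without any 1 of the WT libraries or DMSO replicate 3) and Ears2 (without WT replicate 1, WT replicate 2, DMSO replicate 2 or DMSO replicate 3). With quantile normalization the calls of Hars and of Qars (log2 difference -0.17 as deposited, highest limma adjusted p over the alternatives 0.1144) were lost. Without DMSO replicate 1, Rars, Sars and Sars2 were also called lower. Since this comparison and that of dKO share the WT libraries, their values are set side by side only: Atf4 fell to 172 ± 15.8 FPKM in DMSO and Myc to 68.8 ± 3.63 FPKM, and 14 of 23 amino acid response targets fell while 6 rose. Summed mast cell and basophil markers were 95.3% higher in DMSO than in WT and summed monocyte markers 1.79% higher, and their part was not tested.

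The comparison of PGE1 with DMSO asked what 6 h with 20 µM PGE1 did. Of the 20 cytosolic genes 18 fell, 1 rose (Qars) and 1 was not called (Sars), where 25.5% of the 11242 genes tested were called lower. The cytosolic median log2 difference was -0.61, against 0.01 over all genes. Of the 16 mitochondrial genes 8 fell, 3 rose (Ears2, Lars2 and Fars2) and 5 were not called, where 23.6% of all genes were called higher, and their median was -0.15. The summed cytosolic level ran from 902 to 956 FPKM in DMSO and from 607 to 697 FPKM in PGE1.

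Farsb, the beta subunit of the phenylalanine enzyme, fell most, from 32.8, 27.6 and 27.0 FPKM in DMSO to 14.5, 15.0 and 12.4 FPKM in PGE1, 2.08-fold lower (log2 difference -1.01 ± 0.10, limma adjusted p = 6.07e-05). Wars, the tryptophan enzyme, had the smallest p, with 29.8, 31.2 and 29.7 FPKM in DMSO and 18.4, 16.2 and 15.3 FPKM in PGE1 (-0.83 ± 0.07, limma adjusted p = 3.798e-05). Tars went from 45.3, 42.8 and 43.0 FPKM to 27.0, 23.6 and 21.2 FPKM (-0.85 ± 0.08, limma adjusted p = 7.459e-05). The highest PGE1 library was below the lowest DMSO library in Farsb, Wars and Tars, genes picked by smallest adjusted p. For this comparison too, the share of all genes that separated was not counted.

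Gars went from 73.0, 71.5 and 67.8 FPKM in DMSO to 45.0, 43.5 and 37.6 FPKM in PGE1 (log2 difference -0.74 ± 0.08, limma adjusted p = 8.706e-05). Iars, at 17.7, 13.2 and 15.4 FPKM in PGE1, was 1.85-fold lower (-0.86 ± 0.09, limma adjusted p = 0.0001201). Nars stayed the highest of the family, at 67.6 ± 6.98 FPKM in PGE1 against 101 ± 2.75 FPKM in DMSO. Aars was at 60.9, 60.6 and 58.0 FPKM in DMSO and at 52.3, 54.4 and 51.6 FPKM in PGE1 (-0.18 ± 0.05, limma adjusted p = 0.02311). The genes whose stretches are printed were chosen with these differences in view, so their direction says nothing about the motifs; Iars and Tars hold both motifs in their windows, as Aars does. The Aars call was lost without DMSO replicate 1, DMSO replicate 2, PGE1 replicate 3 or either PGE2 library, and with quantile normalization.

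Qars was the cytosolic gene that rose, from 44.2, 42.2 and 43.1 FPKM in DMSO to 52.4, 55.6 and 51.8 FPKM in PGE1, 1.23-fold (log2 difference 0.30 ± 0.05, limma adjusted p = 0.002069), a call kept under all 15 alternatives. Sars, the serine enzyme, averaged 37.7 ± 1.52 FPKM in DMSO and 42.0 ± 3.82 FPKM in PGE1 (0.15, limma adjusted p = 0.1158), and was called higher with quantile normalization. By class, 9 of 10 class I genes fell and 1 rose, and 9 of 10 class II genes fell. Of the 8 complex enzymes 7 fell and Qars rose. Of the scaffold genes, Eef1e1 fell from 36.4 ± 2.03 to 11.4 ± 3.34 FPKM (-1.62, limma adjusted p = 6.31e-05) and Aimp2 from 31.1 ± 1.19 to 18.5 ± 2.23 FPKM, while Aimp1 was not called (log2 difference 0.07).

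**Figure D4:**
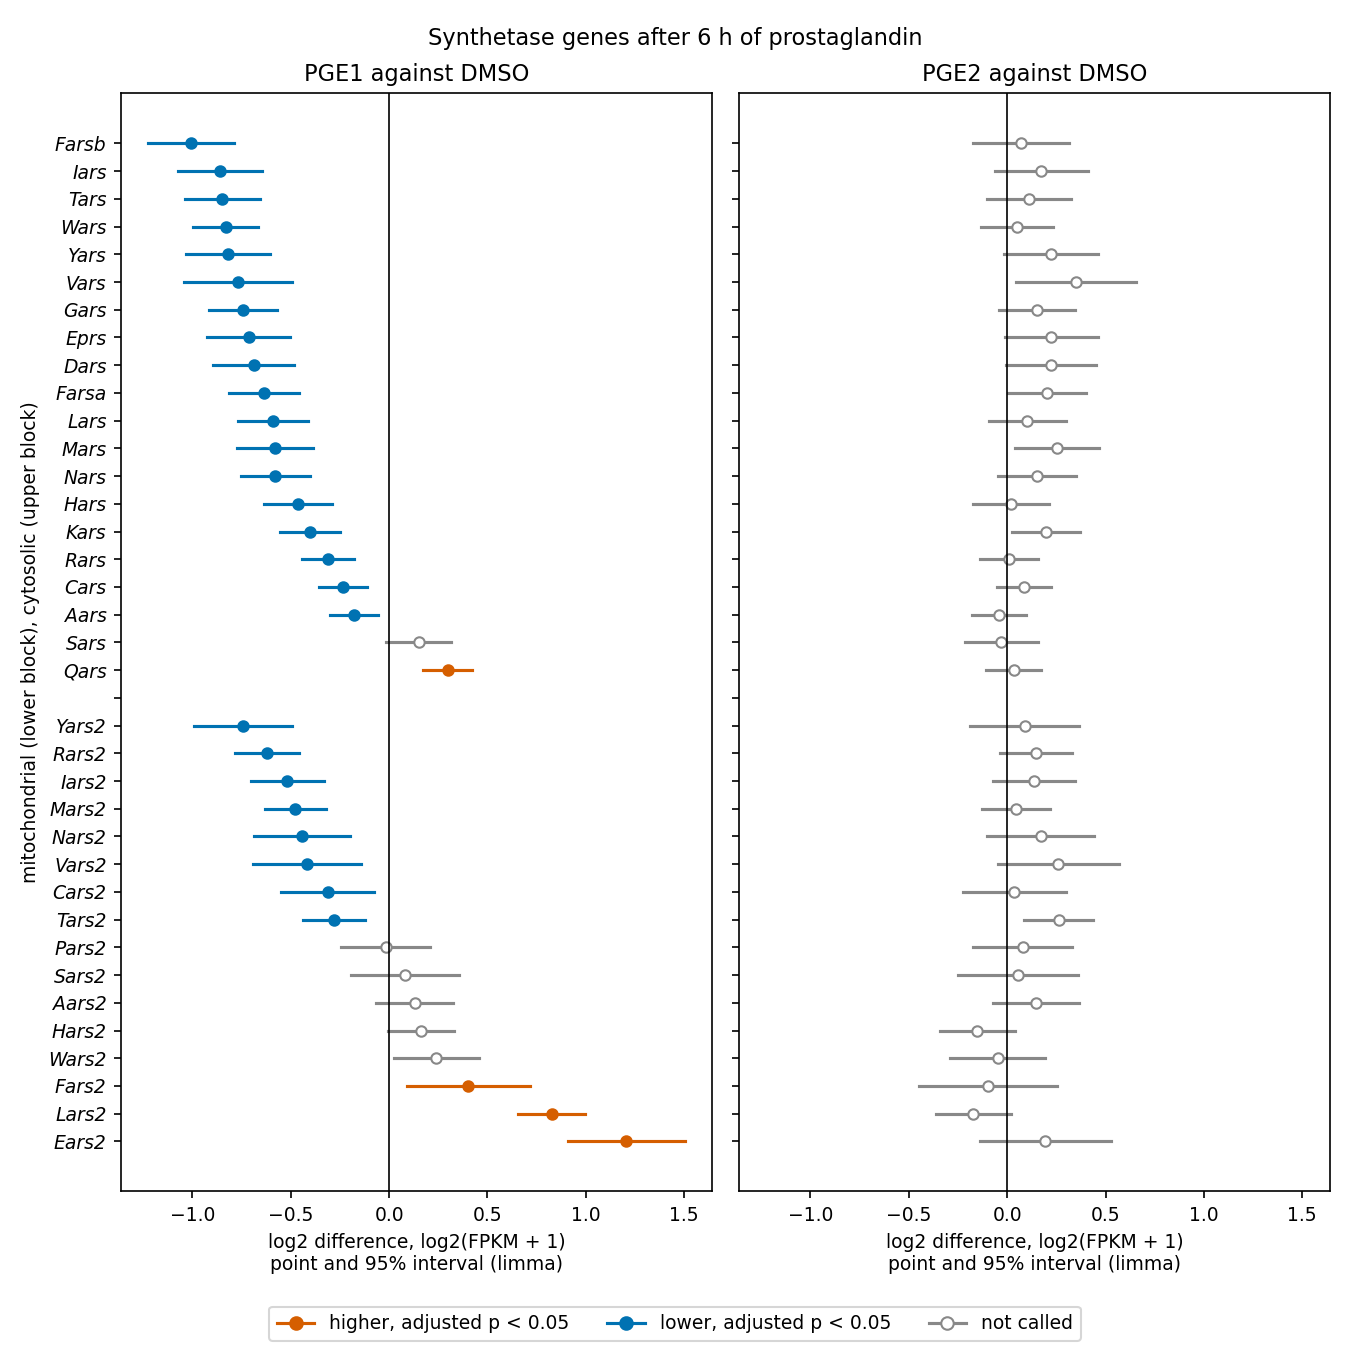
Log2 difference with its 95% interval from limma for each synthetase gene, PGE1 against DMSO on the left and PGE2 against DMSO on the right. Of the 20 cytosolic genes, 18 were called lower and Qars higher after PGE1, whereas none of the 36 genes was called after PGE2; the comparisons share libraries.

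The mitochondrial genes split in 2 directions after PGE1. Ears2, which charges mitochondrial glutamate tRNAs, was at 1.26, 0.931 and 0.974 FPKM in DMSO and at 3.02, 4.59 and 3.72 FPKM in PGE1, 3.58-fold higher (log2 difference 1.21 ± 0.13, limma adjusted p = 0.0001173). Lars2 was at 23.3, 23.3 and 26.6 FPKM in DMSO and at 43.2, 47.0 and 42.0 FPKM in PGE1, 1.8-fold higher (0.83 ± 0.08, limma adjusted p = 4.792e-05). Fars2 was at 7.34, 7.60 and 7.33 FPKM in DMSO and at 8.49, 13.3 and 9.19 FPKM in PGE1 (0.40 ± 0.14, limma adjusted p = 0.03777), high mainly in PGE1 replicate 2. The Fars2 call was lost without any 1 of the DMSO or PGE2 libraries or with no minimum level, and those of Ears2 and Lars2 were kept under all their alternatives.

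Among the 8 mitochondrial genes that fell, Yars2, the tyrosine enzyme, went from 14.6 ± 2.23 to 8.31 ± 0.865 FPKM (log2 difference -0.74, limma adjusted p = 0.0006131) and Rars2, the arginine enzyme, from 10.6 ± 0.422 to 6.58 ± 0.405 FPKM (-0.62, limma adjusted p = 0.0001735). Iars2, Mars2, Nars2, Tars2, Vars2 and Cars2 also fell. The Cars2 call was lost without DMSO replicate 1 or 3, PGE1 replicate 1 or 3 or either PGE2 library, or with no minimum level, and the Vars2 call without DMSO replicate 1 or 2. Aars2, Hars2, Pars2, Sars2 and Wars2 were not called.

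**Figure D5:**
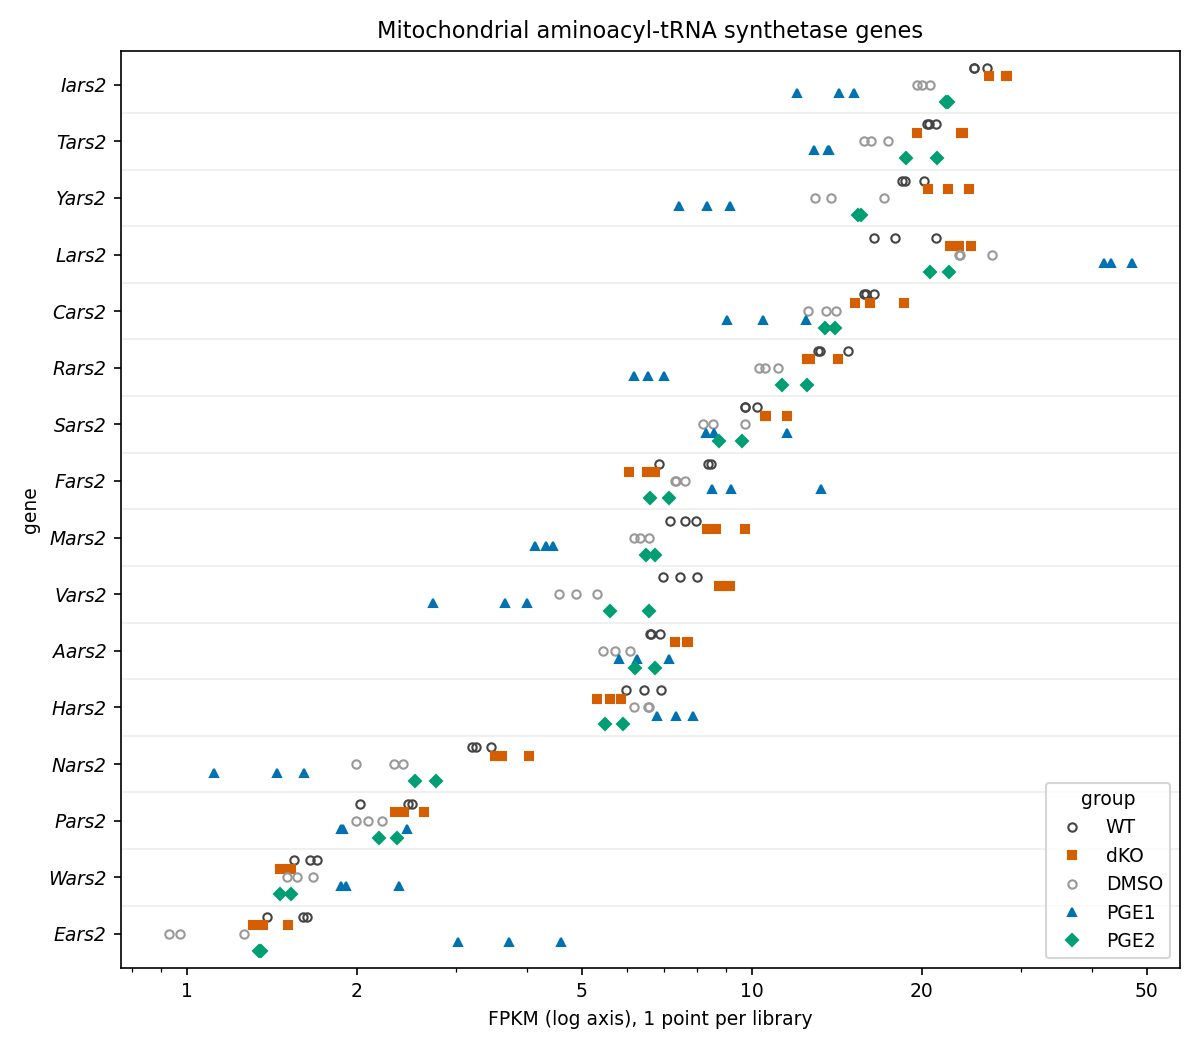
FPKM of each mitochondrial synthetase gene on a log axis, with 1 point per library and groups by colour and shape. The PGE1 points lie above all others for Ears2 (3.02 to 4.59 FPKM) and Lars2 (42.0 to 47.0 FPKM) and below all others for Yars2, Rars2, Mars2 and Nars2.

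Lars2 is set beside Rn45s, the 45S ribosomal RNA precursor, which was singled out after its values were seen. Rn45s was at 190, 254 and 161 FPKM in WT, at 331, 318 and 352 FPKM in dKO, at 172, 166 and 168 FPKM in DMSO, at 442, 530 and 383 FPKM in PGE1 and at 147 and 146 FPKM in PGE2. Both genes rose in dKO against WT and in PGE1 against DMSO, but in DMSO against WT Lars2 rose while Rn45s was not called (log2 difference -0.23, limma adjusted p = 0.1898). Replicate 2 was the highest in both genes in WT and in PGE1, and replicate 3 was the highest in both in dKO. In DMSO and in PGE2 the library highest in Rn45s (replicate 1) was not the highest in Lars2, but Rn45s varied little within those groups. Whether reads of ribosomal RNA were counted in Lars2 was not tested.

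Exons of 9 members overlap another listed gene in GENCODE M21, and the sources used here do not say how strand was handled, so reads in those stretches cannot be told apart. For Ears2 the overlap with Ubfd1 on the opposite strand covers 1.73% of its exonic bases, and Ubfd1 was at 12.1 FPKM in DMSO and 15.2 FPKM in PGE1. For Mars the overlap with Ddit3 on the opposite strand covers 1.99%, and Ddit3 went the other way (21.9 FPKM in DMSO, 29.1 FPKM in PGE1). Iars2 has the largest overlap, 22.89% with Rab3gap2, followed by Aars with Exosc6 on the same strand (14.29%). In dKO against WT and in PGE1 against DMSO, Exosc6 differed in the same direction as Aars. It was at 35.3 FPKM in WT and 44.2 FPKM in dKO, and at 29.0 FPKM in DMSO and 16.7 FPKM in PGE1. In DMSO against WT Exosc6 was lower, while Aars was at 59.1 FPKM in WT and 59.8 FPKM in DMSO. With PGE2 Exosc6 was higher than with DMSO (32.1 FPKM), while Aars was at 58.2 FPKM. Next was Farsb with Sgpp2 (9.47%), where Sgpp2 was at most 0.089 FPKM in any group. Hars and Hars2 overlap each other on opposite strands, and Fars2 and Yars overlap Lyrm4 and Nrn1, and C77080.

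The lists around tRNA charging moved in both directions after PGE1. Of the 23 amino acid response targets 14 fell and 4 rose, with a median log2 difference of -0.46: Phgdh, the first enzyme of serine synthesis, fell from 22.6 ± 2.02 to 9.26 ± 2.92 FPKM and Shmt2, which makes mitochondrial glycine, from 79.1 ± 4.5 to 45.1 ± 8.62 FPKM. In the other direction Ddit4, an inhibitor of mTORC1, rose from 29.1 ± 2.33 to 128 ± 11.8 FPKM and Cebpb from 132 ± 14.4 to 295 ± 60.0 FPKM. Atf4 fell from 172 ± 15.8 to 118 ± 13.1 FPKM (-0.53, limma adjusted p = 0.00225), and of the 9 regulators of the integrated stress response 3 fell and 3 rose. Myc fell from 73.0, 66.3 and 67.1 FPKM to 21.6, 9.40 and 10.9 FPKM (-2.31).

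Of the 15 amino acid transporters 7 fell and 5 rose. Slc1a5, a glutamine transporter, fell from 77.2 ± 3.27 to 36 ± 3.04 FPKM, and Slc6a9, a glycine transporter, rose from 5.15 ± 0.659 to 16.4 ± 2.2 FPKM. Of the 11 other genes of tRNA charging 6 fell and 0 rose, among them Xpot (14.9 ± 0.603 to 8.67 ± 1.64 FPKM). Of the 9 elongation factors 3 rose and 3 fell: cytosolic Eef2 rose from 778 ± 14.3 to 1013 ± 24.3 FPKM, and mitochondrial Gfm1 fell from 21.9 ± 0.815 to 13.0 ± 0.966 FPKM.

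Cell markers also differed between PGE1 and DMSO. Of 8 late neutrophil markers 6 fell and 0 rose, and their sum ran from 336 to 406 FPKM in DMSO and from 198 to 280 FPKM in PGE1. Of 11 monocyte markers 6 fell and 2 rose, with sums from 1085 to 1319 FPKM and from 1060 to 1377 FPKM. Of 5 erythroid markers tested 3 rose and 2 fell, and of 7 mast cell and basophil markers 3 rose and 2 fell. Of 8 megakaryocyte markers 2 rose and 2 fell, and 5 of the 8 differences were negative. The mean megakaryocyte sum was 27.7% higher in PGE1, but libraries overlapped (262 to 318 FPKM in DMSO, 303 to 413 FPKM in PGE1). Over all genes tested, 23.6% were called higher and 25.5% lower. Of the markers of the sorted cell, 2 rose (Kit and Ptprc) and 1 fell (Cd34). None of these lists had a gene at 0 in every PGE1 library. The part of these shifts in the synthetase levels was not tested.

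The comparison of PGE2 with DMSO called none of the 36 genes at an adjusted p below 0.05 by limma, where 0.996% of the 11242 genes tested were called higher and 4.57% lower. At an unadjusted p below 0.05, 5 members were higher (Tars2, Farsa, Kars, Mars and Vars) and 0 lower, beside 984 higher and 1357 lower of all 11242 genes. The log2 differences were positive for 18 of 20 cytosolic genes, with a median of 0.13, and for 12 of 16 mitochondrial genes, with a median of 0.08. The 95% intervals of the 36 differences spanned -0.45 (lower bound, Fars2) to 0.66 (upper bound, Vars). With 2 PGE2 libraries, differences inside these intervals could not be resolved.

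Both PGE2 libraries were above all 3 DMSO libraries in 13 of 20 cytosolic and 7 of 16 mitochondrial genes, where 25% of all genes tested showed this, and below them in 0 and 3, where 24.1% of all genes did. Vars was at 51.7, 45.7 and 46.6 FPKM in DMSO and at 60.2 and 62.5 FPKM in PGE2, 1.28-fold higher (log2 difference 0.35 ± 0.13, limma adjusted p = 0.1841). Mars, the methionine enzyme, was at 39.0, 35.5 and 34.4 FPKM in DMSO and at 42.9 and 44.0 FPKM in PGE2 (0.25, limma adjusted p = 0.1697). In a fit of the DMSO and PGE2 libraries alone, chosen after seeing the data, 5 members were called higher: Vars (limma adjusted p = 0.01627), Eprs (0.02671), Dars (0.03486), Farsa (0.04142) and Mars (0.04228). That fit called 710 higher and 1019 lower of 11181 genes.

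Of the amino acid response targets 1 of 23 was called after PGE2, Vldlr, which rose (log2 difference 0.44). Atf4 averaged 204 ± 1.9 FPKM (n = 2) and Myc 80.3 ± 0.788 FPKM in PGE2, and neither was called against DMSO. Summed late neutrophil markers ran from 513 to 554 FPKM in PGE2 against 336 to 406 FPKM in DMSO, and summed monocyte markers from 1414 to 1465 FPKM against 1085 to 1319 FPKM. In the other direction, summed mast cell and basophil markers were at 347 FPKM in DMSO and 248 FPKM in PGE2, erythroid markers at 31.2 and 21.2 FPKM and stromal and endothelial markers at 58.0 and 39.2 FPKM. Their part in the synthetase levels was not tested.

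PGE1 and PGE2, at the same dose and time, were compared as 1 pair of related compounds; PGE2 carries a double bond in its carboxyl side chain that PGE1 lacks. Of the 20 cytosolic genes 17 were lower with PGE1 than with PGE2, 1 was higher (Qars) and 2 were not called (Aars and Sars), where 26.7% of the 11242 genes tested were called lower. Of the 16 mitochondrial genes 8 were lower, 5 higher (Ears2, Lars2, Fars2, Hars2 and Wars2) and 3 not called, where 27.2% of all genes were called higher. The median log2 difference was -0.84 for cytosolic and -0.22 for mitochondrial genes, against 0.02 over all genes. This comparison is also the test of whether the responses to the 2 compounds differed.

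Vars differed most among the cytosolic genes, at 34.4, 24.2 and 25.7 FPKM with PGE1 and 60.2 and 62.5 FPKM with PGE2, 2.19-fold lower (log2 difference -1.12 ± 0.13, limma adjusted p = 0.0001861). Farsb was at 31.9 and 29.3 FPKM with PGE2 (-1.08 ± 0.11, limma adjusted p = 7.108e-05). Yars was at 17.6, 16.6 and 13.5 FPKM with PGE1 and 32.1 and 35.2 FPKM with PGE2 (-1.04 ± 0.11, limma adjusted p = 7.645e-05). In these genes, picked for their differences, every PGE1 library was below both PGE2 libraries, and the share of all genes that separated so was not counted.

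Tars was at 46.3 and 48.3 FPKM with PGE2 (log2 difference -0.96 ± 0.09, limma adjusted p = 6.877e-05), Gars at 80.2 and 77.4 FPKM (-0.89 ± 0.08, limma adjusted p = 5.744e-05) and Wars at 31.7 and 31.1 FPKM (-0.88 ± 0.08, limma adjusted p = 4.847e-05). Lars2, at 20.7 and 22.4 FPKM with PGE2, was 2.05-fold higher with PGE1 (1.0 ± 0.08, limma adjusted p = 3.352e-05). Ears2, at 1.34 and 1.35 FPKM with PGE2, was also higher with PGE1 (1.01 ± 0.15, limma adjusted p = 0.0004928). Thus Lars2 and Ears2 were higher with PGE1 than with either PGE2 or vehicle, while 17 cytosolic genes were lower.

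Qars, at 44.0 and 44.3 FPKM with PGE2, was higher with PGE1 (log2 difference 0.26, limma adjusted p = 0.00597), a call lost without PGE2 replicate 1. The higher calls of Fars2 (lost without either PGE2 library), Hars2 (without PGE2 replicate 2) and Wars2 (without any 1 of the DMSO or PGE2 libraries or PGE1 replicate 1) also depended on single libraries, as did the lower call of Cars2 (without PGE1 replicate 1 or 3 or either PGE2 library). The Wars2 call was lost in 11 of 14 alternatives, also with a pseudocount of 0.1, with no minimum level and with either other scaling, and the Cars2 call also with no minimum level. Differences not called had intervals of -0.28 to -0.0019 for Aars, -0.01 to 0.36 for Sars, -0.23 to 0.20 for Aars2, -0.28 to 0.33 for Sars2 and -0.35 to 0.16 for Pars2 (log2 scale, 95%). Eef1e1 differed by -1.79 on the log2 scale (PGE1 minus PGE2, 11.4 ± 3.34 against 41.1 ± 0.352 FPKM), and Ddit4 was higher (128 ± 11.8 against 36.9 ± 1.96 FPKM). Late neutrophil markers were lower in 6 of 8 and higher in 0 with PGE1, and their part was not tested.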

How the data were processed

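RNA was measured by sequencing in 14 libraries of sorted mouse cells. The authors deposited FPKM values that they had computed with CASAVA 1.8, TopHat and Cufflinks on build mm9, per the submitters' processing notes, with 1 file of 24463 gene symbols per library. Strand handling, annotation and the treatment of reads that match several genes are not stated there. Whole reads could be recovered from the steps between values for all 19057 genes that had any (100.0%, within 0.002 of a read), which gave reads per gene and depth; these cover counting error only.

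Groups came from the sample titles. Two-sided limma 3.58.1 tests (R 4.3.3, intensity trend) were run on log2(FPKM + 1), a scale that understates changes of low genes, for all genes that averaged 1 FPKM or more over the libraries fitted. P-values were adjusted by Benjamini-Hochberg over those genes, and 0.05 was the threshold. The 6 untreated libraries made 1 fit, the 8 treated ones another (PGE2 has 2 libraries and borrows the others' spread), and WT with DMSO the last. PGE1 and PGE2 share the DMSO libraries, and dKO and DMSO share the WT libraries. Folds are ratios of group mean FPKM. The fits were tested on simulated reads in which few genes changed and no library stood apart, unlike these data. Python 3.11.15 (numpy 2.4.6, pandas 2.3.3, matplotlib 3.10.9) did the rest.

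Members and lists were chosen with earlier results of these data known. Per library values are given for up to 6 members per comparison with the smallest adjusted p, and up to 4 genes with the smallest p among those called in each list, besides Tcf7, Lef1 and Myc; further members and genes, such as those that ran against their group, and Rn45s, were named after their values were seen. Promoter sequences are from RefSeq (GRCm38.p6) and exon overlaps from GENCODE M21, matched by symbol; neither is on the build of the files. Members without a window, or on chromosome 18, have none shown. A planned comparison of protein sequences was not made. Alternatives were another pseudocount (0.1 FPKM), no minimum level and one of 5 FPKM, median-of-ratios scaling, quantile normalization, a replicate block and leaving out each library.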

Additional observations from a re-analysis of the deposited data

How the results depend on the processing

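No member changed direction while called under any alternative. Over the single-member values, an alternative moved a called member below the threshold in 36 cases for dKO against WT, 12 for DMSO against WT, 22 for PGE1 against DMSO and 21 for PGE1 against PGE2, and brought one past it in 8, 6, 3 and 4 cases, and in 7 for PGE2 against DMSO. The 1 member called lower in dKO (Fars2) became 0 with no minimum level, with median-of-ratios scaling and with quantile normalization, and the members called higher in DMSO against WT became 2 with quantile normalization. Members called higher by PGE2 went from 0 to 5 in the fit of DMSO and PGE2 alone, and to 1 (Tars2) without DMSO replicate 1 and PGE1 replicate 2, which stand apart; both alternatives were chosen after seeing the data. The cause of these shifts was not tested. Leaving out 1 library at a time gave 17 to 25 members higher and 0 to 1 lower for dKO against WT, 1 to 1 higher and 24 to 30 lower for DMSO against WT, 3 to 5 higher and 23 to 26 lower for PGE1 against DMSO, 0 to 1 higher and 0 to 0 lower for PGE2 against DMSO, and 3 to 6 higher and 24 to 26 lower for PGE1 against PGE2. The value of 1 for PGE2 was Vars without PGE1 replicate 1, and the 3 for PGE1 against PGE2 came without PGE2 replicate 1 or 2, each of which leaves a single PGE2 library that is assumed to vary like the other groups. Correlations of deviations between same-numbered libraries ran from 0.00159 to 0.117 for WT with dKO and from -0.249 to 0.253 among treated libraries. For different numbers they ran from -0.0782 to 0.0341 and from -0.373 to 0.409. Deviations from means of so few libraries depend on one another, so these values cannot decide whether the numbers pair the samples. With the replicate block, 0 members were called lower in dKO. The calls lost with it were those of Aars2 and Fars2 (dKO against WT) and Cars2 and Wars2 (PGE1 against PGE2). Every other count of members was within 1.5 times its value without the block.

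The genes read at the lowest depth, Nars2, Ears2, Wars2 and Pars2, have the widest counting error, and treated libraries were the shallower ones.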
